A study of Mus musculus with 12 samples.

Results

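The genes described here encode the antigen-presenting machinery of the major histocompatibility complex (MHC) in microglia of the developing mouse brain. They were taken by symbol and number 10 of the 55487 genes in the table: the class I heavy chains H2-K1 and H2-D1, the class I light chain B2m, the peptide transporter subunits Tap1 and Tap2, the class II chains H2-Aa, H2-Ab1 and H2-Eb1, the invariant chain Cd74 and the class II transactivator Ciita. RNA was sequenced in 12 libraries of microglia sorted from the basal forebrain and striatum of YARG mice at postnatal day 13. In YARG mice, every animal carries a yellow fluorescent protein (YFP) placed after the stop codon of Arg1, so YFP reports the activity of that locus; no other allele or treatment is given in the labels. Cells that carried the fractalkine receptor CX3CR1 and lacked the macrophage mannose receptor CD206 were split by YFP into ARG1+ and ARG1- microglia, with 3 libraries from females and 3 from males in each population, and each library held pooled tissue of several mice. The libraries are named by the numbers in their labels: 1, 2 and 13 (ARG1- females), 5, 6 and 14 (ARG1- males), 7, 8 and 15 (ARG1+ females), and 11, 12 and 16 (ARG1+ males).

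MHC class I molecules display peptides from inside the cell and are made of a heavy chain paired with B2M. Peptides are cut by the proteasome, carried into the endoplasmic reticulum by TAP1 and TAP2 and loaded there. MHC class II molecules display peptides from endosomes; the invariant chain CD74 blocks their groove until cathepsins remove it, and the DM and DO molecules then edit and restrain peptide loading. NLRC5 is the main transactivator of class I genes and CIITA that of class II genes. Resting microglia are known for low class II levels, which rise with interferon-gamma.

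Total counts ranged from 28356659 to 60625170 per library, and values are given as CPM, the count of a gene scaled to a common library total after TMM normalization. A count of 0 in a library allows up to 3 counts, which equals at most 0.102 CPM in the shallowest library and covers counting error only. Arg1 itself, the locus behind the sort, had 52 reads in ARG1+ library 15, 2 in ARG1+ library 8 and 0 in the other 10. These 10 included 4 of 6 ARG1+ libraries, so the reads did not check the sort. The study reported quantitative PCR on cells sorted in this way, with Arg1 expression restricted to the YFP-positive population. The 10 microglial markers examined summed to 53555 to 65864 CPM in ARG1+ libraries and 63081 to 88011 CPM in ARG1- libraries, and 6 of them fell while 1, Sall1, rose. Of markers of other cells, the border macrophage list (10 genes) was mostly Mrc1. It summed to 125 to 261 CPM in ARG1+ and 122 to 150 CPM in ARG1- libraries. Of its 8 tested genes, only Folr2 passed the limit, and it was higher in ARG1+ microglia. Those that missed it included Mrc1 (log2 fold change 0.26) and Cbr2 (-0.83). Cd163 and Lyve1 were at 0 in every ARG1- library, and in 5 and 4 of 6 ARG1+ libraries. The dendritic cell list (8 genes, mostly Zbtb46) summed to 27.5 to 46.1 CPM in ARG1+ and 13.3 to 27.2 CPM in ARG1- libraries, with none of its 5 tested genes past the limit. The monocyte list (7 genes, with Plac8 the most abundant over the 12 libraries and lower in ARG1+ microglia, where Ccr2 was the most abundant) summed to 1.89 to 6.70 CPM and 5.12 to 14.1 CPM in the same order. The B cell list (6 genes, mostly Ighm) summed to 599 to 718 CPM and 886 to 1039 CPM, with Pax5 at 0 throughout and Ms4a1 above 0 in 1 library. Its 2 tested genes, Ighm and Cd79b, were both lower in ARG1+ microglia. Cd79b lay at 56.6 to 93.2 CPM in ARG1+ and 134 to 178 CPM in ARG1- libraries. The T cell list (6 genes) had 5 at 0 throughout and at most 0.661 CPM of Trac, and the endothelial list (5 genes, mostly Pecam1) summed to 39.6 to 83.5 CPM and 29.8 to 57.5 CPM, with Cldn5 at 0. The part of these other cells in the results was not tested, and fewer cells of a type and less RNA per cell cannot be told apart in sorted bulk samples.

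The regulators measured further on act through short motifs just upstream of MHC genes. These comprise an X box bound by RFX and CREB proteins, a Y box bound by NF-Y and, in class I promoters, an interferon response element bound by IRF proteins. The stretch before the start site is shown for 1 heavy chain, the light chain and 1 class II chain, so that the shared layout can be seen. Sequences are from the RefSeq table for GRCm38.p6, 5′ to 3′ on the gene's own strand. The stretch shown for H2-K1 lies at chr17:34000348-34000597 on the minus strand. That for B2m lies at chr2:122147437-122147685 on the plus strand, and that for H2-Aa at chr17:34287824-34288073 on the minus strand. Capitals mark matches, on either strand, to ATTGG (Y box core), TGACG (CREB-type core of the X box) and AANNGAAA (IRF core).
H2-K1: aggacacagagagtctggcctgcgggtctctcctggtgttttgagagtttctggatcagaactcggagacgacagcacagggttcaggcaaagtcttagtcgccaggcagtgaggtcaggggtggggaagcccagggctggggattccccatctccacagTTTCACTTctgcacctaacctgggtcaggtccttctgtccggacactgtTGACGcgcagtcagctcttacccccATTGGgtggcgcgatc
B2m: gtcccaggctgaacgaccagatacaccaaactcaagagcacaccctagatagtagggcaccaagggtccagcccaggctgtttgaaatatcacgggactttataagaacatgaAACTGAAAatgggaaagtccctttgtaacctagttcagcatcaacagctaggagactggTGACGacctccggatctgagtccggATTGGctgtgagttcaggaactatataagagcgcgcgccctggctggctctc
H2-Aa: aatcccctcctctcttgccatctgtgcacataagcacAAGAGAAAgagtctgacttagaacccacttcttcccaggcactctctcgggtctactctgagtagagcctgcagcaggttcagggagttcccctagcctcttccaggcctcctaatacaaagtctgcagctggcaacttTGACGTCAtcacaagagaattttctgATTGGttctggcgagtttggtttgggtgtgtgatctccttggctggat
Counted back from the last base shown, ATTGG began at -16 in H2-K1, -52 in B2m and -48 in H2-Aa, and TGACG began further upstream at -41, -77 and -74. In H2-Aa a match on the minus strand, at -71, overlapped that on the plus strand. The IRF core began at -90 in H2-K1 (on the minus strand), -136 in B2m and -213 in H2-Aa. Of 32851 RefSeq stretches of 250 bases before a start site, 33.8% held ATTGG, 17.8% TGACG and 21.3% AANNGAAA, so a match is a description and no evidence of binding. The stretches of H2-D1, Tap1 and H2-Eb1 held bases of annotated exons and were not shown. The RefSeq table gave no entry for Tap2, H2-Ab1, Cd74 and Ciita.

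No MHC gene passed the test between the ARG1+ and ARG1- populations, whose limit was an adjusted p under 0.05. Of the 10, 9 passed the filter on low counts and were tested, 0 were called higher and 0 lower, and the populations overlapped in every one. Over all 16908 genes tested, 2682 (15.9%) were called, 6.44% higher and 9.42% lower, and the populations did not overlap for 3.48% (higher) and 6.56% (lower). With only 9 genes tested, 0 calls does not set the group apart from that background. At an unadjusted p under 0.05 there was 1 gene, B2m, which was lower, where all genes gave 13.9% higher and 15.2% lower. DESeq2 called 0 MHC genes as well. The median log2 fold change of the 9 was 0.08, against 0.06 over all genes tested. Adjusted p values come from the quasi-likelihood test of edgeR, adjusted over all genes tested by the Benjamini-Hochberg method, and log2 fold changes are ARG1+ over ARG1-.

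**Figure D1:**
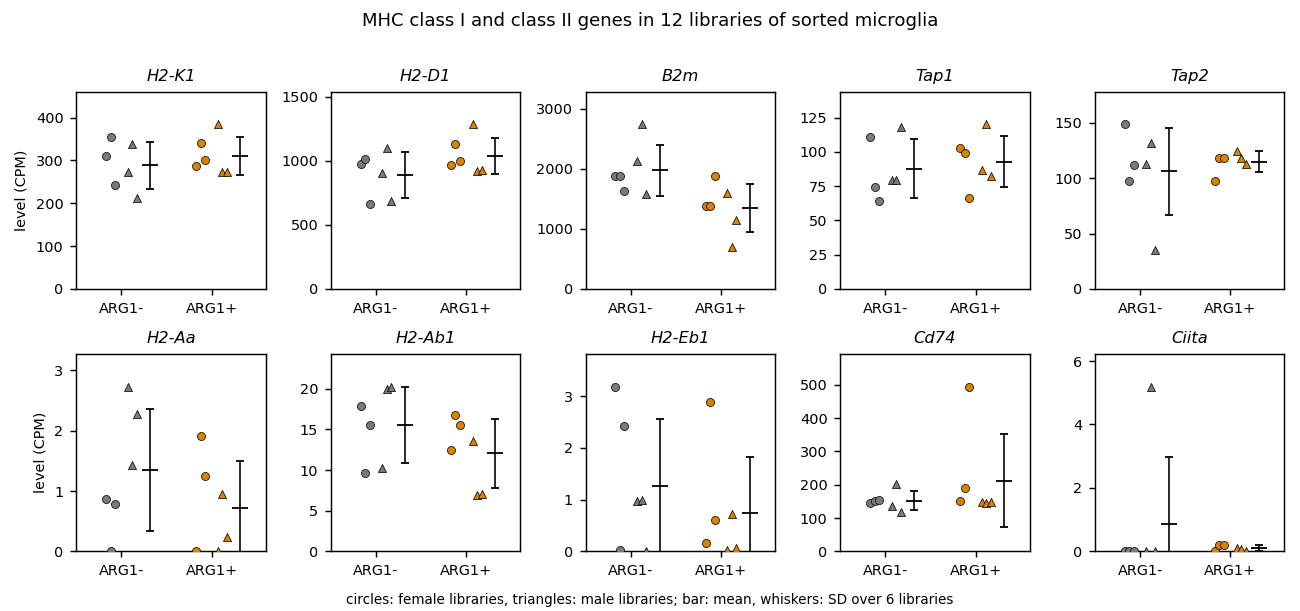
Level in CPM (vertical axis, linear, from 0, scaled for each gene) of the 10 MHC genes in the 6 ARG1- and 6 ARG1+ libraries. Circles are female and triangles male libraries, bars are means and whiskers are SDs, shown only above 0. The populations overlap in every panel, for B2m with 4 ARG1+ libraries below the ARG1- range and 2 inside it, and single libraries stand far from the others for Cd74 (493 CPM) and Ciita (5.18 CPM).

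The class I heavy chains had similar levels in the populations. H2-K1 (ENSMUSG00000061232, GRCm38 chr17:33996017-34000347), a classical heavy chain, lay at 272, 294 and 384 CPM (lowest, median and highest) in ARG1+ and at 213, 291 and 355 CPM in ARG1- libraries. Its means of 309 ± 44.3 and 288 ± 55.4 CPM (SD, n = 6 each) gave a log2 fold change of 0.10 with an SE of 0.14 and an adjusted p of 0.678. The ranges overlapped, with 3 ARG1+ libraries on each side of the ARG1- median. The ARG1+ range lay higher at both ends. ARG1- libraries 14 and 13 had the lowest values, 213 and 243 CPM, and ARG1+ library 11 the highest, 384 CPM. H2-D1 (ENSMUSG00000073411, chr17:35262730-35267499), the other classical heavy chain, lay at 918, 982 and 1284 CPM in ARG1+ and at 665, 942 and 1098 CPM in ARG1- libraries. Its log2 fold change was 0.22 (SE 0.14, 95% interval -0.09 to 0.53, adjusted p = 0.336). The 2 lowest values, 665 and 683 CPM, were ARG1- libraries 13 and 14, and the 2 highest, 1284 and 1130 CPM, were ARG1+ libraries 11 and 8. Both heavy chains share sequence with related class I genes: 3.10% of the 75-base windows of H2-K1 transcripts and 5.56% of those of H2-D1 also occur in transcripts of other genes, so some reads could be assigned to either.

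B2m (ENSMUSG00000060802, chr2:122147686-122153083), the light chain that pairs with class I heavy chains, had the lowest unadjusted p of the MHC genes. It lay at 699, 1381 and 1875 CPM in ARG1+ and at 1579, 1879 and 2737 CPM in ARG1- libraries. All 6 ARG1+ libraries were below the ARG1- median and 4 of them below every ARG1- library, while ARG1+ libraries 11 and 15 (1593 and 1875 CPM) lay inside the ARG1- range. The means were 1345 ± 401 and 1973 ± 425 CPM (SD, n = 6 each). The log2 fold change was -0.56 (SE 0.21, 95% interval -1.02 to -0.11). The unadjusted p of edgeR's test was 0.020 and the adjusted p 0.0926, so the difference did not pass the limit. The adjusted p lay between 0.055 and 0.221 over 21 alternative settings, and the log2 fold change between -0.74 and -0.38. No 75-base window of B2m transcripts occurred in another gene.

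The TAP subunits showed no difference that passed the test. Tap1 (ENSMUSG00000037321, chr17:34187553-34197225), 1 of the transporter's subunits, lay at 66.5, 92.7 and 120 CPM in ARG1+ and at 64.0, 79.4 and 118 CPM in ARG1- libraries. The log2 fold change was 0.08 (SE 0.18, adjusted p = 0.801), and the ranges were almost the same. Tap2 (ENSMUSG00000024339, chr17:34203527-34216321), its partner subunit, lay at 98.0, 118 and 125 CPM in ARG1+ and at 35.3, 112 and 149 CPM in ARG1- libraries. The lowest value was ARG1- library 14, with 1193 counts, and the other 11 libraries lay at 97.8 CPM or above. The log2 fold change, 0.12 with an SE of 0.25 (adjusted p = 0.794), became -0.050 without that library. Tap1 overlaps the immunoproteasome gene Psmb9 by 212 bases on the opposite strand, and Tap2 overlaps the antisense genes Gm15821 and Gm20496. Because the libraries do not mark strand, reads in those stretches cannot be told apart.

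The class II chains were low in every library, and H2-Ab1 made up most of their reads. H2-Ab1 (ENSMUSG00000073421, chr17:34257689-34269419), the beta chain of I-A, lay at 6.89, 13.02 and 16.8 CPM in ARG1+ and at 9.63, 16.7 and 20.2 CPM in ARG1- libraries. The fitted log2 fold change was -0.41 with an SE of 0.29 (adjusted p = 0.388). In 5 of 6 ARG1+ libraries it was below the ARG1- median, and in 2, libraries 12 and 16, it was below every ARG1- library. H2-Aa (ENSMUSG00000036594, chr17:34282744-34287823), the alpha chain of I-A, lay at 0, 0.591 and 1.91 CPM in ARG1+ and at 0, 1.154 and 2.72 CPM in ARG1- libraries. It had 0 counts in ARG1+ libraries 7 and 11 and in ARG1- library 2, and 103 counts at most. H2-Eb1 (ENSMUSG00000060586, chr17:34305867-34316674), the beta chain of I-E, lay at 0.0227, 0.378 and 2.89 CPM in ARG1+ and at 0, 0.991 and 3.18 CPM in ARG1- libraries. Its counts ran from 0 to 142, and in each population 2 libraries were at or below 3 counts. The 95% intervals of the log2 fold changes, -4.05 to 2.55 for H2-Aa and -3.61 to 1.70 for H2-Eb1, span large differences in either direction (adjusted p = 0.789 and 0.658). Summed, the 3 chains lay at 7.35, 13.1 and 21.6 CPM in ARG1+ and at 9.66, 20.3 and 22.5 CPM in ARG1- libraries.

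Cd74 (ENSMUSG00000024610, chr18:60803848-60812652), the invariant chain that chaperones class II molecules and also acts as a receptor for the cytokine MIF, was present in every library at 119 CPM or more. It lay at 145, 150 and 493 CPM in ARG1+ and at 119, 148 and 203 CPM in ARG1- libraries. The medians were alike, and the highest value, 17319 counts in ARG1+ female library 15, stood far above the 145 to 190 CPM of the other ARG1+ libraries. The log2 fold change was 0.42 (SE 0.28, adjusted p = 0.365) with that library and 0.07 without it. Library 15 was not high for the class II chains themselves (H2-Ab1 15.5, H2-Aa 1.25 and H2-Eb1 0.598 CPM) or for the heavy chains, but it had the highest B2m of the ARG1+ libraries. It was also the library with the 52 reads of Arg1, the highest endothelial marker sum (83.5 CPM) and the lowest microglial marker sum (53555 CPM). Its dendritic cell and B cell sums, 27.5 and 599 CPM, were the lowest of the ARG1+ libraries. The border macrophage sum of library 15 was 201 CPM. That sum was highest in ARG1+ library 16, at 261 CPM, where Cd74 was 147 CPM. The part of these markers was not tested.

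**Figure D2:**
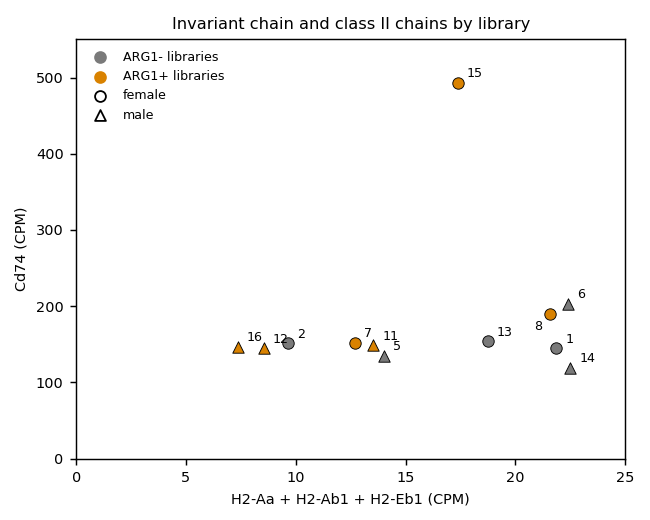
Cd74 level (vertical axis, CPM) against the summed level of H2-Aa, H2-Ab1 and H2-Eb1 (horizontal axis, CPM) in each of the 12 libraries, with library numbers beside the points. Grey marks ARG1- and orange ARG1+ libraries, circles females and triangles males; Cd74 stays between 119 and 203 CPM in 11 libraries while the class II sum runs from 7.35 to 22.5 CPM, and library 15 stands apart at 493 CPM.

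The ratio of Cd74 to summed class II chains in CPM was 8.82, 14.5 and 28.4 (lowest, median and highest) in ARG1+ and 5.29, 8.65 and 15.7 in ARG1- libraries. The ranges overlapped, and the highest ratio was that of library 15.

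Ciita (ENSMUSG00000022504, chr16:10480059-10528418), the transactivator that class II transcription depends on, was too low to be tested. ARG1- library 6 had 155 counts (5.18 CPM), and the other 5 ARG1- libraries had 0. The ARG1+ libraries had between 0 and 7 counts, above 3 in libraries 8, 11, 12 and 15. Library 6 also had the highest Cd74 of the ARG1- libraries, 203 CPM, and the highest B2m of all libraries, 2737 CPM, while its H2-Ab1 of 19.96 CPM was matched by ARG1- library 14 (20.2 CPM), which had no Ciita reads. The cause was not tested. Ciita overlaps Dexi by 329 bases on the opposite strand, where reads cannot be told apart either. With no filter on low counts the fit gave a log2 fold change of -0.59 with an SE of 4.91 (adjusted p = 0.962).

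Per kilobase of annotated exons, B2m was the highest of the MHC genes at 1929 ± 596 CPM per kb (SD, n = 12), followed by H2-D1 at 374 ± 66.9. Cd74 at 108 ± 59.9 and H2-K1 at 102 ± 16.7 CPM per kb did not differ beyond their spread, and Cd74 was above H2-K1 in only 3 of 12 libraries. Tap2 at 29.3 ± 7.26 exceeded Tap1 at 16.5 ± 3.55 CPM per kb in 11 of 12 libraries, the exception being ARG1- library 14. H2-Ab1 followed at 5.38 ± 1.80, then H2-Eb1 at 0.517 ± 0.602, H2-Aa at 0.273 ± 0.242 and Ciita at 0.0506 ± 0.155 CPM per kb. H2-Eb1 was above H2-Aa in 8 of 12 libraries and H2-Aa above Ciita in 8, so the order of these 3 lay within their spread. The lowest H2-Ab1 level of any library, 2.68 CPM per kb, was above the highest H2-Aa level, 0.717 CPM per kb.

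Across the 12 libraries, H2-K1 and H2-D1 varied together (Pearson's r = 0.93 of log2 CPM), while no other pair of the 9 tested MHC genes exceeded 0.64. B2m correlated with the heavy chains at 0.26 and 0.13, and Tap1 with Tap2 at -0.33. These are descriptions over libraries that differ in sorted population and in depth. Part of the likeness of the heavy chains could come from shared windows, which was not tested. The genes outside the group most like H2-K1 were Cyb5r3 (r = 0.91), Uap1l1 (0.88), Chst1 (0.87), Gm16069 (0.86) and Mif4gd (0.85). Those most like Cd74 were Mir5107 (0.99), Tro (0.89), Tead2 (0.85), Mir7024 (0.81) and Gm43463 (0.80). Of these, Tro, Mir7024 and Gm43463 had mean levels of only 0.336, 0.247 and 0.150 CPM, and Tro was 2.79 CPM in library 15 and at most 0.578 CPM elsewhere. Mir5107 overlaps a Cd74 exon by 12 bases on the same strand. Without library 15 the correlations of Tead2 and Mir7024 fell to 0.49 and 0.46. Those of Mir5107, Tro and Gm43463 were then 0.92, 0.78 and 0.86.

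Sex was not associated with a called difference in the MHC genes. Within ARG1- microglia 0 of 9 genes differed between females and males, against 0.0946% of all genes. Within ARG1+ microglia 0 of 9 differed, against 0.0355%. At an unadjusted p under 0.05 there were 0 MHC genes in ARG1- microglia, where all genes gave 5.31% higher in females and 4.70% higher in males, and 1 in ARG1+ microglia, where all genes gave 1.33% and 1.79%. That gene was Cd74, at 152, 190 and 493 CPM in ARG1+ females and 145, 147 and 149 CPM in ARG1+ males (female minus male 0.92 on the log2 scale, SE 0.36, adjusted p = 1 by edgeR). The ARG1 difference itself did not differ between the sexes for any of the 9 genes (smallest adjusted p 0.609, 0 genes at an unadjusted p under 0.05); over all genes the share called was 0.00%, and 4.44% and 4.88% had an unadjusted p under 0.05 with an effect above and below 0. DESeq2 and the fits without single libraries also called 0 of the 9 in these contrasts. B2m averaged 1145 ± 447 CPM in ARG1+ and 2150 ± 579 CPM in ARG1- males, and 1545 ± 285 and 1795 ± 146 CPM in females (SD, n = 3 each). The difference between these ARG1 effects, females minus males, was 0.69 on the log2 scale with an SE of 0.38.

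Other genes of antigen presentation were counted in 6 lists, in which 58 of 72 were tested, of which 5 (8.62%) were higher and 12 (20.7%) lower in ARG1+ microglia, with a median log2 fold change of -0.07. Over all genes tested the shares were 6.44% higher and 9.42% lower. Among genes with a mean of at least 20 CPM, a limit chosen after the data were seen, 8.90% of 7066 were higher and 17.8% lower, near the shares in the lists. Of the 5 higher genes, H2-M2 passed the filter on low counts only through ARG1+ libraries, and 4 were higher without it. Of the 58 tested, the populations did not overlap for 1 higher and 6 lower genes. Over all genes tested the shares without overlap were 3.48% (higher) and 6.56% (lower). Leaving out 1 library reduced the higher genes to 3 without library 1, 2, 6, 8, 12 or 14, and the lower genes to 6 or 7 without library 2, 7, 8, 12 or 16.

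**Figure D3:**
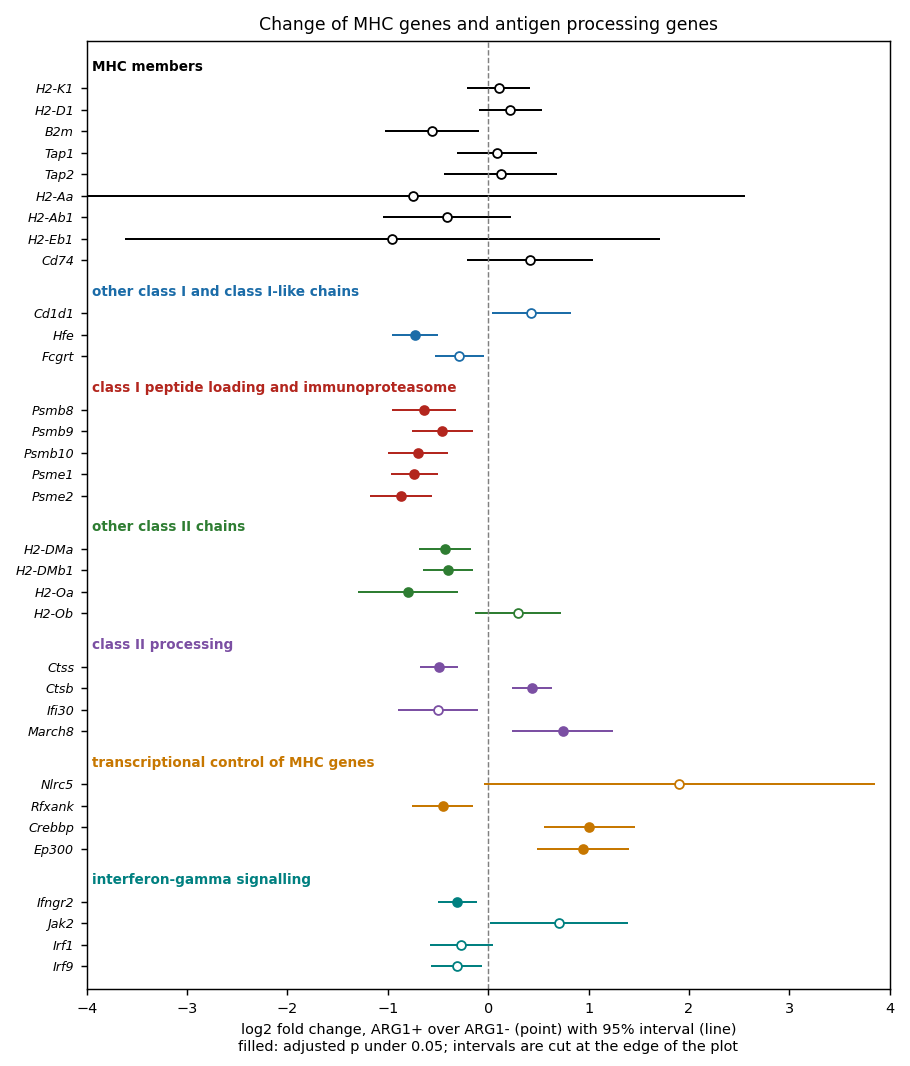
Log2 fold change of ARG1+ over ARG1- microglia (horizontal axis; points) with 95% intervals (lines, cut at -4 and 4) for the 9 tested MHC genes and named genes of the 6 antigen presentation lists. Filled points have an adjusted p under 0.05; all MHC genes are open, and the 5 immunoproteasome and PA28 genes are filled and below 0.

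In the list of class I peptide loading and immunoproteasome genes, 5 of 11 (45.5%) were lower in ARG1+ microglia and 0 were higher. Over all genes tested 9.42% were lower, and 17.8% among those with a mean of at least 20 CPM. The 5 lower genes were subunits of the immunoproteasome and its PA28 activator, a subset named with its values in view. The 6 loading and trimming genes (Tapbp, Tapbpl, Calr, Canx, Pdia3 and Erap1) missed the limit, with log2 fold changes between -0.23 and 0.19, and the subsets were not tested against each other. Psme2, the beta subunit of PA28, lay at 49.6, 62.5 and 78.9 CPM in ARG1+ and at 95.4, 119 and 141 CPM in ARG1- libraries. Every ARG1+ library was below every ARG1- library, and the ARG1+ level was 0.547 of the ARG1- level (95% interval 0.445 to 0.673, adjusted p = 0.00174). Psme1, the alpha subunit, lay at 76.1, 83.9 and 113 CPM in ARG1+ and at 125, 149 and 161 CPM in ARG1- libraries, also without overlap (ratio 0.601, adjusted p = 0.000988). Psmb10, a catalytic subunit, lay at 42.6, 51.5 and 63.1 CPM against 68.0, 83.0 and 98.3 CPM, again without overlap (ratio 0.616, adjusted p = 0.00481). For the catalytic subunit Psmb8 the values were 105, 122 and 170 CPM against 150, 204 and 239 CPM, and only ARG1+ library 11 reached into the ARG1- range (ratio 0.640, adjusted p = 0.00979). Psmb9, the remaining catalytic subunit, averaged 35.3 ± 4.21 and 48.5 ± 7.995 CPM (SD, n = 6 each; log2 fold change -0.46, adjusted p = 0.0392). Its call was kept in only 2 of the 12 fits that left out 1 library, those without ARG1+ library 11 or ARG1- library 14, and the other 10 gave adjusted p values of up to 0.104.

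**Figure D4:**
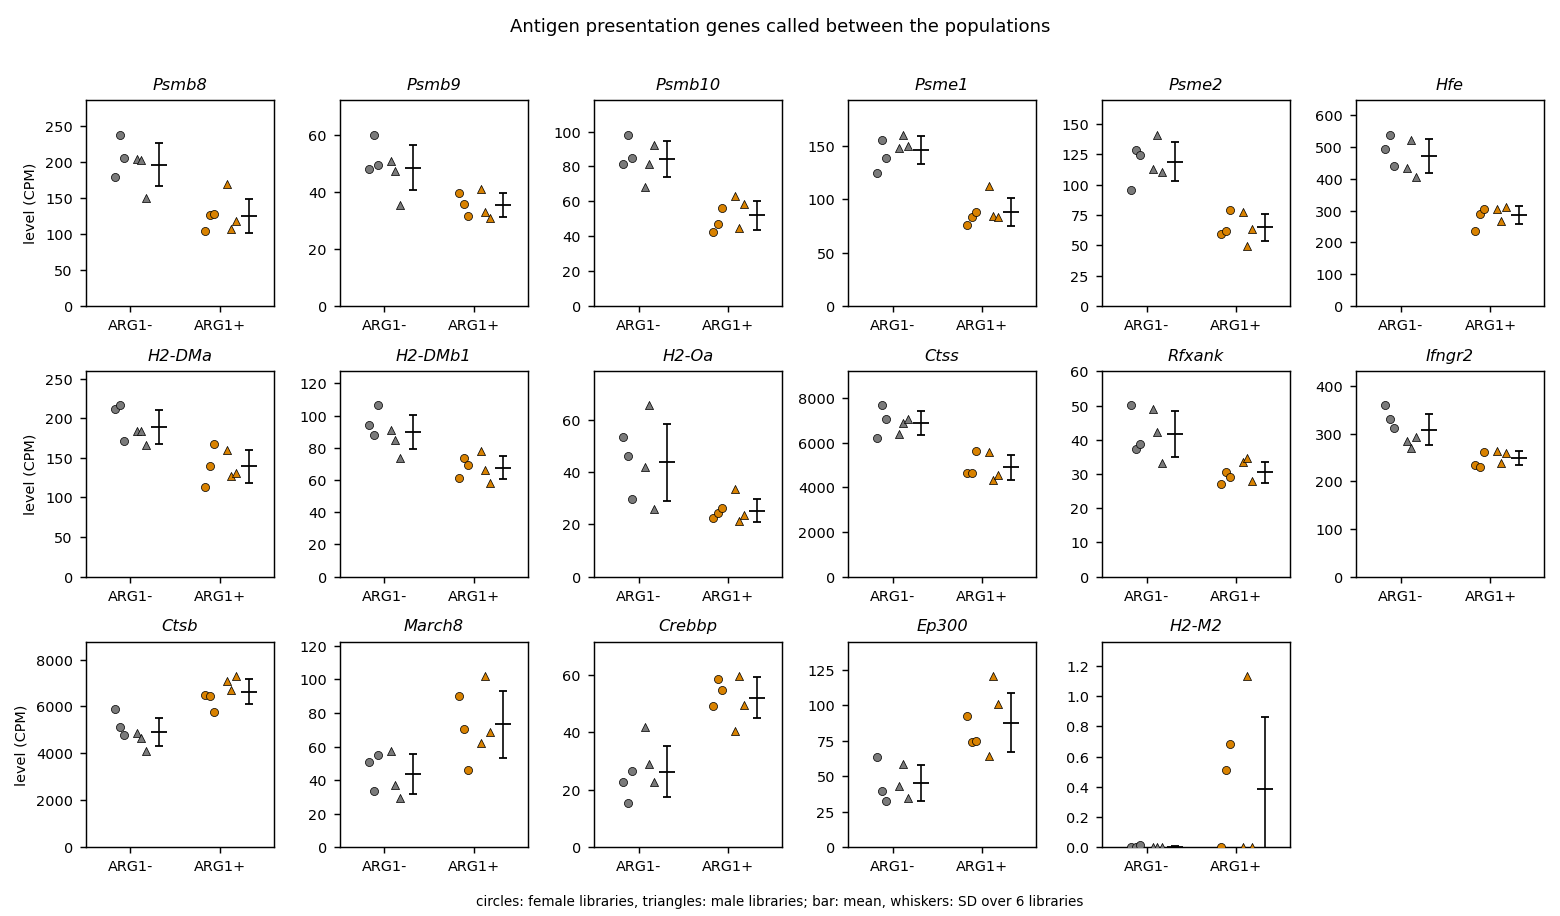
Level in CPM (vertical axis, linear, from 0, scaled for each gene) of the 17 genes of the 6 lists called between the populations, the 12 lower ones first and then the 5 higher ones (from Ctsb on), in 6 ARG1- and 6 ARG1+ libraries. Circles are female and triangles male libraries, bars are means and whiskers SDs, cut at 0; Psmb10, Psme1, Psme2, Hfe, Ctss, Ifngr2 and Ep300 separate fully, and H2-M2 is above 1 count in only 3 ARG1+ libraries.

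Of the other class I and class I-like chains, 13 of 24 were tested, 1 was lower and 1 higher. Each is 7.69% of those tested, against 9.42% lower and 6.44% higher over all genes tested. Hfe, a class I-like protein that takes part in iron sensing rather than peptide display, lay at 237, 296 and 312 CPM in ARG1+ and at 405, 466 and 539.6 CPM in ARG1- libraries. The populations did not overlap (log2 fold change -0.73, SE 0.10, adjusted p = 0.000986). H2-M2, a nonclassical class I gene, was sparse and passed the filter only through the ARG1+ libraries, so that its test supports nothing: it had 15, 24 and 54 counts in ARG1+ libraries 8, 15 and 12, 0 in the other 3, and 1 count in ARG1- library 13 with 0 in the remaining 5. Its adjusted p was 0.0357, but the call was kept in only 3 of 12 fits that left out 1 library, those without ARG1+ library 7, 11 or 16 (adjusted p of up to 0.184, without ARG1+ library 12), and no fold is given because the ARG1- libraries were at the detection limit. The other 11 did not pass the limit, among them Cd1d1, which presents lipids (log2 fold change 0.43, adjusted p = 0.127), and Fcgrt, the neonatal Fc receptor heavy chain (-0.29, adjusted p = 0.0936). Several of these genes share windows with relatives, 40% for H2-T22, 36% for H2-T10, 21.1% for H2-Q6, 20.7% for H2-Q4 and 14.2% for Cd1d1, so their own values are uncertain.

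Of the other class II chains, 5 of 7 were tested and 3 (60%) were lower in ARG1+ microglia. Over all genes tested 9.42% were lower, and 17.8% among those with a mean of at least 20 CPM. The list was not tested as a set. H2-DMa, the alpha chain of the peptide editor DM, averaged 140 ± 20.8 CPM in ARG1+ and 189 ± 21.02 CPM in ARG1- libraries (SD, n = 6 each; log2 fold change -0.43, SE 0.11, adjusted p = 0.0234). H2-DMb1, a DM beta chain, averaged 67.8 ± 7.38 and 89.8 ± 10.8 CPM (log2 fold change -0.40, adjusted p = 0.0263), and 15.8% of its windows also occur in other genes, foremost H2-DMb2. H2-Oa, the alpha chain of the DM inhibitor DO, averaged 25.2 ± 4.38 and 43.8 ± 14.9 CPM (log2 fold change -0.80, adjusted p = 0.0319), whereas its partner H2-Ob averaged 30.6 ± 5.85 and 24.9 ± 6.54 CPM (log2 fold change 0.30, adjusted p = 0.346). Windows shared with another gene made up 7.46% for H2-DMa (with Brd2) and 11.8% for H2-Oa (with BC051537). In all 3 called genes every ARG1+ library was below the ARG1- median, but the populations overlapped. Of the 12 fits without a single library, H2-DMa kept its call in 7 and lost it without library 2, 7, 8, 12 or 16 (adjusted p of up to 0.0791). H2-DMb1 kept it in 5, those without library 1, 2, 6, 11 or 14, and H2-Oa in 4, those without library 5, 11, 13 or 14, with adjusted p values of up to 0.0881 and 0.0887 in the others.

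Of 8 class II processing genes, 1 (12.5%) was lower and 2 (25%) higher, against 9.42% and 6.44% over all genes tested. So few genes do not set the list apart from that background. Ctss, the cathepsin S that trims the invariant chain, lay at 4315, 4662 and 5639 CPM in ARG1+ and at 6206, 6976 and 7689 CPM in ARG1- libraries, without overlap (log2 fold change -0.49, SE 0.08, adjusted p = 0.00247). Ctsb, the lysosomal protease cathepsin B, moved the other way, at 5765, 6593 and 7303 CPM against 4089, 4814 and 5895 CPM (log2 fold change 0.44 with an SE of 0.09, adjusted p = 0.00601). Only ARG1+ library 15 lay within the ARG1- range for Ctsb. March8, a ubiquitin ligase of the family whose member MARCH1 removes class II molecules from the surface, averaged 73.3 ± 19.996 and 43.8 ± 12.05 CPM (SD, n = 6 each; log2 fold change 0.74, adjusted p = 0.0432), and kept its call in 4 of 12 fits without a single library, those without library 5, 11, 13 or 15 (adjusted p of up to 0.0953 in the others). March1 averaged 167 ± 26.3 and 190.5 ± 49.1 CPM and did not pass the limit. Ifi30, the lysosomal thiol reductase GILT, missed it with a log2 fold change of -0.50 (adjusted p = 0.0764). Without ARG1+ library 15, where Ifi30 was 98.4 CPM against 42.8 to 60.7 CPM in the other ARG1+ libraries, its log2 fold change was -0.67 and passed the limit (adjusted p = 0.00861).

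Of 10 genes that control MHC transcription, 2 (20%) were higher and 1 (10%) lower, against 6.44% and 9.42% over all genes tested. So few genes do not set the list apart from that background. The acetyltransferase coactivators Crebbp and Ep300, which serve many promoters besides those of MHC genes, were both higher. Crebbp lay at 40.6, 52.2 and 59.7 CPM in ARG1+ and at 15.5, 24.7 and 41.8 CPM in ARG1- libraries, where ARG1- library 5 was the only one to reach the ARG1+ range (log2 fold change 1.01 with an SE of 0.20, adjusted p = 0.00647). Ep300 did not overlap, with means of 87.7 ± 20.9 and 45.3 ± 12.8 CPM (log2 fold change 0.95, adjusted p = 0.00926). Rfxank, a subunit of the RFX complex that binds the X box, averaged 30.5 ± 3.08 and 41.8 ± 6.70 CPM (log2 fold change -0.45, adjusted p = 0.0392), but this call was kept in only 1 of 12 fits without a single library, that without ARG1- library 14, with adjusted p values of up to 0.110 in the others. Its partners Rfx5 and Rfxap and the NF-Y subunits Nfya, Nfyb and Nfyc did not pass the limit. Nlrc5, the class I transactivator, lay at 5.22, 6.29 and 15.6 CPM in ARG1+ and at 0, 1.56 and 6.32 CPM in ARG1- libraries. Only ARG1- library 6, which also held the Ciita reads, reached the ARG1+ range. The log2 fold change was 1.90 with an SE of 0.89 (adjusted p = 0.181), and 3.30 without library 6, where it again missed the limit.

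Interferon-gamma signalling genes showed 1 call, lower, among 11 tested. That is 9.09%, near the 9.42% called lower over all genes tested. Ifngr2, a chain of the interferon-gamma receptor, averaged 249 ± 15.04 CPM in ARG1+ and 309 ± 32.8 CPM in ARG1- libraries, without overlap (log2 fold change -0.31, SE 0.08, adjusted p = 0.0267). It kept its call in 4 of 12 fits without a single library, those without library 1, 5, 6 or 11, with adjusted p values of up to 0.0993 in the others. Ifngr1, the other chain, averaged 1639 and 1729 CPM and missed the limit, as did the kinase gene Jak2 (log2 fold change 0.70, adjusted p = 0.156) and the transcription factor genes Irf9 (-0.31, adjusted p = 0.0823) and Irf1 (-0.27, adjusted p = 0.235). Ifng itself, the gene of the cytokine, had 0 counts in all 12 libraries.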

How the data were processed

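RNA of 12 libraries of sorted microglia (4 groups of 3 by ARG1-YFP status and sex) was amplified with SMART-Seq v4 and made into Nextera XT libraries, which do not mark strand, and sequenced as single-end 75-base reads. Per the labels and the study's methods, the authors demultiplexed with bcl2fastq 2.20.0, aligned with STAR 2.6.1d to GRCm38 and counted reads on genes with featureCounts 1.5.1; its options and the annotation release are not given in the sources used here, nor how multi-mapping reads were treated. The authors tested with DESeq2 1.28.1. The deposited values used here are raw counts per gene by Ensembl identifier, without normalization, 1 column per library, and 0 columns were left unused. There are no molecular identifiers, so copies made in amplification count as separate reads.

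Symbols and positions came from GENCODE M21 (GRCm38), which matched 55227 of 55487 identifiers. Of the listed class I and class II genes, 5 symbols had no match (H2-L, H2-Q8, H2-Q9, H2-T9 and H2-Ea). The listed H2-Ea-ps, annotated as a polymorphic pseudogene, was matched and had 0 counts in all 12 libraries. Counts were analysed in R 4.3.3 with edgeR 4.0.16: filterByExpr on the 4 groups, TMM, and glmQLFit and glmQLFTest on all 12 libraries in a model of sex and ARG1 status. P values of the 16908 genes tested were adjusted by the Benjamini-Hochberg method, with a limit of 0.05. Sex contrasts and the interaction were taken from a model of the 4 group means. SEs were derived from each log2 fold change and its F value. In a chi-square of counts, replicate libraries of the same group differed by 40.7 to 125 times their degrees of freedom. Each library was counted as 1 sample. The chi-square compared libraries within groups, so it does not show that ARG1+ and ARG1- libraries are independent. The study gives 3 litters per sex as replicates and describes sorting both populations from pooled tissue of either sex. By that description, ARG1+ and ARG1- libraries of a sex come from the same 3 litters. The labels do not say which libraries share a pool, and the model did not take this sharing into account. P values measure the spread between these pooled samples.

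The MHC genes, the 6 gene lists and the marker lists were chosen with earlier results of these data known. Genes named from each list are those with an adjusted p under 0.05 and up to 4 with the smallest p; any further gene was picked with its values in view. For likeness, the 5 genes with the highest Pearson correlation of log2 CPM (prior count 2) were taken. Shared windows are 75-base stretches of a gene's transcripts that also occur in another gene's. Alternatives were RLE size factors, no filter, at least 10 counts in every library, DESeq2 1.42.0, a term for libraries 13 to 16, ARG1 status alone, thinned counts and each library left out. Added after seeing the data were fits without ARG1+ library 15 and ARG1- library 6, and without libraries 13 to 16.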

Additional observations from a re-analysis of the deposited data

Results flagged for a closer look

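In each population of 6 libraries, the highest or lowest value was compared with the rest for 35 named genes (70 groups). By Dixon's criterion, 11 values stood far from the others. A chance rate of about 1 in 20 groups, or 3.5, holds only for independent, normally distributed values. The CPM values here include 0 and come from genes that can vary together, so 11 cannot be read as an excess over 3.5. Where all other libraries hold 0, any count is flagged. Among the MHC genes the flagged values were H2-Eb1 in ARG1+ female library 8 (2.89 CPM, others 0.0227 to 0.714), Cd74 in ARG1+ female library 15 (493 CPM, others 145 to 190) and Ciita in ARG1- male library 6 (5.18 CPM, others 0). Among the other genes, ARG1+ male library 11 was far above the rest of its population for Fcgrt (494 CPM, others 380 to 421), Psme1 (113 CPM, others 76.1 to 88.1) and Psmb8 (170 CPM, others 105 to 128). Ifi30 was 98.4 CPM in ARG1+ female library 15 (others 42.8 to 60.7), and Nlrc5 was 15.6 CPM in ARG1+ male library 12 (others 5.22 to 6.95). In ARG1- libraries, Nlrc5 was 6.32 CPM in male library 6 (others 0 to 2.37), Fcgrt was 666 CPM in female library 1 (others 446 to 507), and H2-M2 had its 1 count (0.017 CPM) in female library 13 (others 0), which is within the 3 counts that a value of 0 allows. The cause was not tested for any of them.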

How the results depend on the processing

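The MHC genes had 0 calls in either direction under all 21 alternatives. Tap2 changed sign, with a log2 fold change of -0.050 without ARG1- male library 14 (up to 0.24 without the other single libraries) and -0.078 without the libraries numbered 13 to 16. The other 8 tested genes kept their direction. Over single libraries left out, the other antigen presentation genes gave 3 to 5 higher and 6 to 12 lower calls, and the immunoproteasome and PA28 genes 4 to 5 lower calls. All genes tested gave 690 to 1116 higher calls (lowest without ARG1+ library 12) and 1048 to 1553 lower calls (lowest without ARG1+ library 16). Without libraries 13 to 16, which leaves 2 libraries a group, these counts were 0 higher and 5 lower for the other antigen presentation genes, 2 for the immunoproteasome and PA28 genes, and 304 higher and 334 lower over all genes. Without ARG1+ library 15 and ARG1- library 6 together, 7 other antigen presentation genes and 3 immunoproteasome and PA28 genes were lower. With no filter, 6 other antigen presentation genes were lower, over 29671 genes tested. DESeq2 called 1896 genes higher; the cause was not tested. Of 710 values of single genes under the alternatives, 604 kept their direction and side of the limit, 98 lost a call, 6 gained one and 2 changed sign. The median log2 fold change of all genes was between 0.01 and 0.11 over the settings. H2-Aa, H2-Eb1, Ciita and H2-M2 had few counts, which varied widely between libraries. No paired analysis was possible because the groups share no library numbers and the labels do not say which libraries share a litter.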
